A study of Mus musculus with 20 samples.

Results

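The measurements described here come from 4 of the 20 arrays of a time course in mouse splenic B cells, namely the 2 arrays of TAK1-deleted cells and the 2 arrays of wild-type cells taken after 1 h with anti-IgM. They were chosen by their titles, which give the genotype, the time and the replicate. The question the comparison addresses is how far the first transcriptional wave after B cell receptor ligation differs when the kinase TAK1 is missing. In the labels the TAK1-deleted group has the genotype mb-1/TAK1f/f and the wild-type group mb-1/TAK1+/+. The name mb-1 is the older one for Cd79a, a gene that is active throughout the B lineage. It stands in both genotypes, and the labels do not spell out the allele or say how complete the deletion was. All mice were on the C57BL/6 background, 8 to 12 weeks old and, per the labels, of mixed sex, and B cells were enriched from spleen by removing cells that carry CD43 with magnetic beads. Both groups had anti-IgM at 10 µg/ml in medium with fetal serum. The arrays taken at 0 h, 2 of each genotype, are used below to show which differences were there without stimulation. Whether replicates were separate mice or cultures is not stated in the labels. The p-values measure the spread between arrays of the same group, pooled over all 20 arrays, and this spread may be technical.

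TAK1, the product of Map3k7, is a kinase that sits between receptors and both the NF-κB and the MAP kinase pathways. When the B cell receptor is ligated, TAK1 activates the IκB kinase complex, and IκB proteins are degraded so that NF-κB dimers enter the nucleus. There they induce survival genes, adhesion molecules and cytokines, together with the inhibitors that end the signal, of which IκBα (Nfkbia) and A20 (Tnfaip3) are the best known. Receptor ligation also induces immediate early transcription factors such as Egr1 and Fos through calcium and MAP kinases.

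Values are log2 expression values, and a difference is the TAK1-deleted mean minus the wild-type mean ± the standard error from limma (n = 2 arrays in each group). A gene is called lower or higher where the Benjamini-Hochberg adjusted p over all 11968 genes tested was below 0.05, two-sided. At 1 h 264 genes were lower (2.21% of the genes tested) and 248 were higher (2.07%) in TAK1-deleted cells, and in all of these the arrays of the genotypes did not overlap. The fall reached 2-fold in 97 genes and 4-fold in 8, and the rise reached 2-fold in 80 and 4-fold in 12. With the replicate number as a block the counts were 684 lower (5.72%) and 860 higher (7.19%). An unadjusted p below 0.05 was reached by 684 lower genes (5.72%) and 952 higher genes (7.95%). With the arrays centred on their medians there were 551 lower and 343 higher genes. Left-out arrays moved the counts too: without wild-type replicate 1 there were 107 lower and 152 higher genes, without wild-type replicate 2 there were 155 higher genes, without TAK1-deleted replicate 1 there were 100 higher genes, and without TAK1-deleted replicate 2 there were 109 lower genes. In all, 92 of the lower and 93 of the higher genes were called with each of the 4 arrays left out in turn. Below, a call is said to hold where it passed all 4 of these fits. The median difference over all genes tested was 0.03, and 43.1% of them had a difference below 0.

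The lower and the higher genes differed in how far they were already apart at 0 h. Without stimulation 278 genes were called (2.32%), 98 of them lower (0.819%) and 180 higher (1.5%). Of the 264 genes lower at 1 h, 63 were also lower at 0 h, which is 23.9% of the 1 h genes and 64.3% of the 0 h genes. Of the 248 genes higher at 1 h, 145 were also higher at 0 h, which is 58.5% of the 1 h genes and 80.6% of the 0 h genes. The change from 0 h to 1 h was compared between the genotypes directly as a difference of differences, called the response here. It was lower in TAK1-deleted cells for 13 genes (0.109%) and higher for 0 genes (0%) in limma. With the replicate block it was lower for 78 genes (0.652%) and higher for 12 (0.1%), and at an unadjusted p below 0.05 without the block it was lower for 211 and higher for 110. The count also shrank: it was 0 when only the compared arrays were fitted, and 5 to 8 without TAK1-deleted replicate 1 or 2 at 1 h, TAK1-deleted replicate 2 at 0 h, wild-type replicate 1 at 1 h, or wild-type replicate 1 or 2 at 0 h. All 13 response genes were among the 264 genes lower at 1 h, none of them had been called at 0 h, and 188 of the 264 were called in neither the 0 h comparison nor the response.

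**Figure D1:**
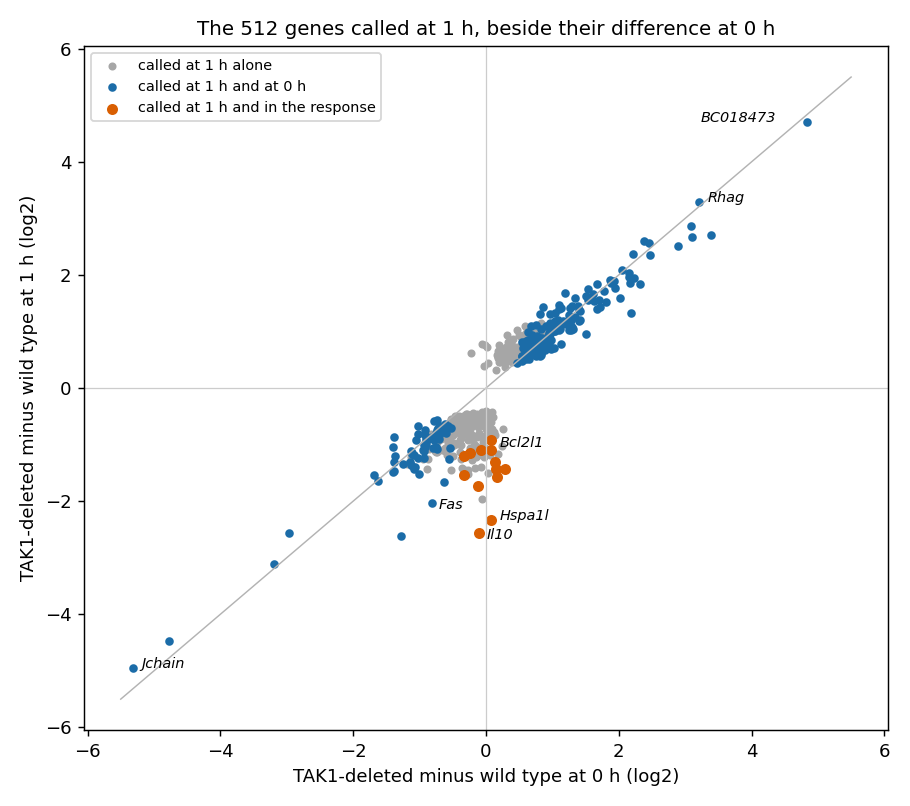
The genotype difference at 1 h (vertical axis, log2) against that at 0 h (horizontal axis, log2) for the 512 genes called at 1 h, with the line of equal differences. Genes higher in TAK1-deleted cells lie mostly along the line, while the 13 response genes lie below it, near 0 on the horizontal axis.

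Samples of the 2 genotypes also differed in RNA of other cells and in sex-linked genes, and these differences run beside many of the results. Of 12 pan-B markers tested, 0 were called in limma and 1 had an unadjusted p below 0.05. Their mean level was 12.78 and 12.64 in TAK1-deleted arrays, against 12.84 and 12.58 in wild-type arrays, so markers of the labelled cell type were high in both. Of 13 T cell markers 10 were lower (5 of these calls held), of 9 NK cell markers 7 were lower (4 held), and of 12 erythroid markers 11 were higher (all 11 held). Eif2s3y, which lies on the Y chromosome, was at 4.69 and 4.65 in TAK1-deleted arrays, against 9.70 and 8.58 in wild-type arrays. The Y-linked genes Uty and Kdm5d were lower as well, by differences of -3.11 and -2.55, and Xist, transcribed from the inactive X chromosome, was at 12.77 and 12.82 in TAK1-deleted arrays, against 12.08 and 11.85 in wild-type arrays. Over all times, Eif2s3y lay between 4.63 and 4.89 on the 10 TAK1-deleted arrays, against 8.32 to 9.82 on the 10 wild-type arrays, and Uty between 5.16 and 5.39, against 7.56 to 8.80. These values go against the mixed sex that the labels give for the TAK1-deleted mice, since no TAK1-deleted array had a Y-linked level near that of wild type. Sex and genotype therefore cannot be told apart for genes that differ between the sexes, and the part of sex in the values of other genes was not tested.

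Map3k7 itself, on a single probe set (10503680), was at 10.73 and 10.46 in TAK1-deleted arrays, against 10.41 and 10.19 in wild-type arrays. The difference was 0.30 ± 0.14 with an adjusted p of 0.37, and with the replicate block the adjusted p was 0.0209. Where the probes lie relative to the deleted part of the gene was not analysed here, so these values check neither the deletion nor the labels. Among 21 tested genes of the TAK1, IκB kinase and TRAF modules, the median difference was 0.04 and 2 were lower, Traf1 and Map3k8. Map3k8, the kinase that drives ERK signalling downstream of IκB kinase, was at 10.47 and 10.26 in TAK1-deleted arrays, against 11.54 and 11.32 in wild-type arrays. Its difference was -1.06 ± 0.15 (adjusted p 0.000425), it held, and the value at 0 h was -0.01. The response difference of Map3k8, -1.05, was not called (adjusted p 0.118). With the block 4 genes of this list were lower and 2 were higher.

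Inhibitors that NF-κB induces against itself were among the lower genes. Of 15 tested genes for NF-κB subunits and inhibitors, 14 had a difference below 0, against 43.1% of all genes tested. In this list 3 were called lower, Tnfaip3, Nfkbia and Nfkbiz, with 0 higher and a list median of -0.27. The list median at 0 h was -0.13. With the block 7 were lower. Tnfaip3, which encodes the ubiquitin-editing inhibitor A20, was at 10.99 and 10.97 in TAK1-deleted arrays, against 12.36 and 12.05 in wild-type arrays. The difference was -1.22 ± 0.16 (adjusted p 0.000149), a 2.33-fold change, and it held. Tnfaip3 rose with anti-IgM in both genotypes, by 1.60 in TAK1-deleted and by 2.68 in wild-type cells. The response difference of -1.08 had an adjusted p of 0.118 without the block and 0.000205 with it.

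Nfkbia was at 12.13 and 12.13 in TAK1-deleted arrays, against 12.67 and 12.79 in wild-type arrays. The difference was -0.60 ± 0.10 (adjusted p 0.00115), and it held. It is a smaller step than in Tnfaip3. Nfkbiz, an atypical IκB protein that acts in the nucleus, was lower by a difference of -0.88 (adjusted p 0.0178), but this call did not hold with an array left out (adjusted p up to 0.172). The subunit genes gave no call. Rel was at 13.57 and 13.48 in TAK1-deleted arrays, against 13.72 and 13.51 in wild-type arrays (adjusted p 0.841). Relb and Nfkb2 had differences of -0.27 and -0.23, and Nfkb1 was not among the genes tested.

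Promoters of lower genes from these groups are shown because each holds a match to an NF-κB-type site. They are the 250 bases before the annotated start, 5′ to 3′ on the gene's strand, from RefSeq on build GRCm38.p6. Capitals mark matches to the 10-letter motif GGGNNNTTCC, searched on both strands. Nfkbia lies on the minus strand at chr12:55492648-55492897, with the site 29 to 20 bases before the start. Tnfaip3 lies on the minus strand at chr10:19015411-19015660, with the printed site 12 to 3 bases before the start. This promoter has a further match 33 to 42 bases after the start, outside the bases printed, and the gene's other listed promoter has a match 90 to 81 bases before its start. Tnfrsf9, a costimulatory receptor described below, lies on the plus strand at chr4:150927749-150927998, with the site 43 to 34 bases before the start of 1 of its 2 listed promoters. Bcl2l1 lies on the minus strand at chr2:152830718-152830967, with the site 218 to 209 bases before the start of 1 of its 3 listed promoters.
Nfkbia: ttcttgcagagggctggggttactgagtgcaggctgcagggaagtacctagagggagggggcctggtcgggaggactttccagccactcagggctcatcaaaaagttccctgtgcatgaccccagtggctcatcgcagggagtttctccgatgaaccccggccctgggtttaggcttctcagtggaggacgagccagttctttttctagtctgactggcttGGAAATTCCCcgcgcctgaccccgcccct
Tnfaip3: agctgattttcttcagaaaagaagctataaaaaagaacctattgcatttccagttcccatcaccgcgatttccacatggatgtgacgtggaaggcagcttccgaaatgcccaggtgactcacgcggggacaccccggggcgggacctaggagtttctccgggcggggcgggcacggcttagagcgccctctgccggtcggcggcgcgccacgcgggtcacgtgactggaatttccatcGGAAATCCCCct
Tnfrsf9: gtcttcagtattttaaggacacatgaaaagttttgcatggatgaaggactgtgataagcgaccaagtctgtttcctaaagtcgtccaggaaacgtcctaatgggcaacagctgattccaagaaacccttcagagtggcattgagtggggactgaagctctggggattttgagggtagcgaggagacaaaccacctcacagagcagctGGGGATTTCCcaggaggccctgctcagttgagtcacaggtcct
Bcl2l1: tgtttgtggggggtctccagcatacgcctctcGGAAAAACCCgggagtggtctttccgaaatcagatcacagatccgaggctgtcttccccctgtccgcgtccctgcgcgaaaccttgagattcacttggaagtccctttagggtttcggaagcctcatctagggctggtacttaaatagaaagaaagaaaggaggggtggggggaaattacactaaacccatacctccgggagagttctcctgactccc

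In the window from 250 bases before to 50 bases after the start, the motif was present in 32 of 268 promoters of the genes lower at 1 h (11.9%) and in 15 of 260 promoters of the genes higher at 1 h (5.77%). The share was 6.13% over promoters of all genes tested and 5.56% over all 32851 promoters. The RefSeq table held a promoter for 199 of the 264 lower genes and 198 of the 248 higher genes. For the NF-κB target list the share was 34.2%, and that list was drawn up knowing that its genes have such sites. For the 13 response genes it was 1 of 14 promoters. These are counts of letters in a window, given without a test, and a window without the motif says nothing about the factor.

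NF-κB target genes as a whole list were lower in part. Of 42 listed genes 39 were tested, and 34 of these had a difference below 0, against 43.1% of all genes tested. Of the 39 genes 11 were called lower and 0 higher, and the median was -0.27 against 0.03 over all genes. At 0 h the list median was already -0.13, against 0.01 over all genes, with 1 gene called lower. The median response difference of the list was -0.18. At an unadjusted p below 0.05 there were 17 lower and 2 higher, and with the replicate block 18 lower and 2 higher. Of the 11 calls 7 held. The called genes spread over functions: the inhibitors above, survival (Bcl2l1, Traf1, Gadd45b), adhesion and costimulation (Icam1, Slamf1), a chemokine (Ccl5), and proliferation (Ccnd2, Pim1).

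**Figure D2:**
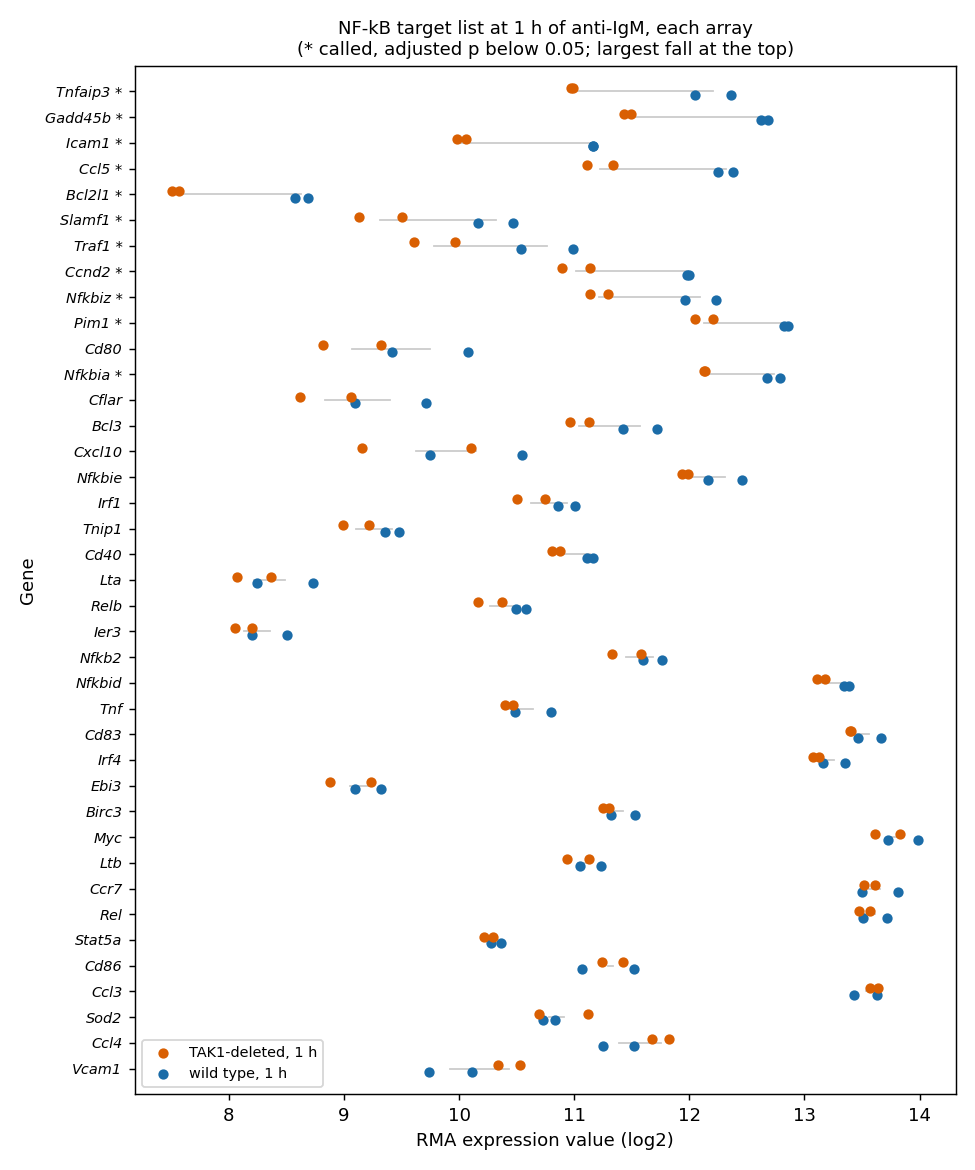
Log2 expression value (horizontal axis) of the 39 tested NF-κB target genes (vertical axis) on each TAK1-deleted and each wild-type array at 1 h, ordered by the difference, with a line between group means. The 11 genes with an asterisk were lower in TAK1-deleted cells, and most others have the TAK1-deleted points to the left of or among the wild-type points.

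Bcl2l1 encodes Bcl-xL, which protects mitochondria from pro-apoptotic proteins. At 1 h it was at 7.57 and 7.51 in TAK1-deleted arrays, against 8.57 and 8.69 in wild-type arrays. At 0 h it had been at 7.41 and 7.56 in TAK1-deleted arrays, against 7.28 and 7.53 in wild-type arrays. The genotypes overlapped at 0 h and not at 1 h: Bcl2l1 changed by 0.05 with anti-IgM in TAK1-deleted cells (not called) and rose by 1.23 in wild-type cells. The difference at 1 h was -1.09 ± 0.13 (adjusted p 7.48e-05), and the response difference was -1.17 ± 0.18 (adjusted p 0.0152). Of 11 tested anti-apoptotic genes Bcl2l1 had the largest fall, and the other one called was Traf1, a TRAF adaptor, with a difference of -0.98 that did not hold. With the block 4 were lower. Of 15 pro-apoptotic genes 1 was lower, Bbc3, which encodes the BH3-only protein PUMA, with a difference of -0.47 that did not hold.

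Gadd45b, a stress-response gene whose product restrains JNK signalling, was at 11.49 and 11.43 in TAK1-deleted arrays, against 12.62 and 12.69 in wild-type arrays. The difference was -1.20 ± 0.11 (adjusted p 7.54e-06) and the response difference -0.87 (adjusted p 0.046). Icam1, the adhesion molecule that binds LFA-1, was at 9.98 and 10.06 in TAK1-deleted arrays, against 11.16 and 11.16 in wild-type arrays. Its difference was -1.14 ± 0.11 (adjusted p 1.44e-05) and its response difference -0.90 (adjusted p 0.0457). Unlike Gadd45b, which rose in both genotypes, Icam1 changed by -0.26 in TAK1-deleted and by 0.65 in wild-type cells. Ccnd2, the D-type cyclin of activated B cells, was at 11.13 and 10.90 in TAK1-deleted arrays, against 11.98 and 11.99 in wild-type arrays (difference -0.97 ± 0.17, adjusted p 0.00278). Pim1, a survival kinase, had a difference of -0.72 that did not hold.

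Surface receptors of the TNF receptor family were lower in 6 of 18 tested members, with 0 higher and a median of -0.36. The median at 0 h was -0.23. Fas, the death receptor, had the largest fall among them. It was at 6.52 and 6.45 in TAK1-deleted arrays, against 8.91 and 8.15 in wild-type arrays, a difference of -2.04 ± 0.19 (adjusted p 7.52e-06). At 0 h Fas was already lower, with 6.56 and 6.46 in TAK1-deleted arrays against 7.42 and 7.23 in wild-type arrays (difference -0.82). It changed by -0.02 with anti-IgM in TAK1-deleted cells and by 1.20 in wild-type cells, and the response difference had an adjusted p of 0.166 without the block and 0.017 with it. The TAK1-deleted values lie in the dim range of the array, where the fold can be understated. Tnfrsf4, which encodes the costimulatory receptor OX40, was at 8.14 and 8.02 in TAK1-deleted arrays, against 8.95 and 9.01 in wild-type arrays (difference -0.90 ± 0.11). Tnfrsf26 also held, with a difference of -0.70, while Tnfrsf9 (4-1BB, -0.62), Tnfrsf25 (-0.46) and Cd27 (-1.13) did not. T cells express several of these receptors, and T cell markers had a mean level of 9.08 and 8.78 in TAK1-deleted arrays, against 10.07 and 9.77 in wild-type arrays. Their part in these values was not tested.

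Activation markers of B cells were not uniformly lower. Of 17 tested surface genes 4 were lower (Icam1, Slamf1, Il2ra, Tnfrsf9) and 0 higher, and with the block 8 were lower and 1 was higher. The list median was -0.19 at 1 h and -0.18 at 0 h. Of the 4 calls only that of Icam1 held. Cd69, an early activation antigen, was at 12.87 and 12.78 in TAK1-deleted arrays, against 13.27 and 12.98 in wild-type arrays. Its difference of -0.30 had an adjusted p of 0.421, and 0.0132 with the block. Cd83, a marker of activated antigen-presenting cells, had a difference of -0.17. Cd86, the costimulatory ligand of CD28, was at 11.43 and 11.25 in TAK1-deleted arrays, against 11.52 and 11.06 in wild-type arrays, and the genotypes overlapped. Both genes rose with anti-IgM in each genotype, Cd83 by 1.97 in TAK1-deleted and 1.81 in wild-type cells, and Cd86 by 1.33 in TAK1-deleted and 1.20 in wild-type cells.

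The largest response difference among the genes called was that of a cytokine. Il10, the anti-inflammatory cytokine that activated B cells can secrete, was at 7.61 and 7.19 in TAK1-deleted arrays, against 10.27 and 9.67 in wild-type arrays. The difference was -2.57 ± 0.24 (adjusted p 7.45e-06), or 5.94-fold. Il10 had been at 5.81 and 5.80 in TAK1-deleted arrays at 0 h, against 6.08 and 5.74 in wild-type arrays. The genotypes were thus close without stimulation and did not overlap at 1 h, when Il10 had risen by 1.59 in TAK1-deleted and by 4.06 in wild-type cells (response difference -2.47 ± 0.33, adjusted p 0.0048).

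Of 29 tested cytokine and chemokine genes 5 were lower and 1 was higher, and with the block 8 were lower and 3 higher. Of the 6 calls 5 held, the exception being Tnfsf14. Il4, the type 2 cytokine, was at 7.40 and 6.99 in TAK1-deleted arrays, against 8.98 and 8.29 in wild-type arrays (difference -1.44 ± 0.19). Vegfa, the angiogenic growth factor, had a difference of -1.20 ± 0.20, with -0.13 at 0 h. The response difference of Vegfa was not called (adjusted p 0.363). Ccl5, a chemokine made by T and NK cells, had a difference of -1.09 ± 0.12 at 1 h and -0.95 at 0 h, and Tnfsf14 had -0.71 and -0.73, so those genotype differences were present before stimulation. NK cell markers had a mean level of 8.10 and 7.83 in TAK1-deleted arrays, against 9.28 and 8.90 in wild-type arrays, and their part in the chemokine values was not tested. The exception was Il12b, the p40 subunit of IL-12 and IL-23. It was at 8.25 and 8.21 in TAK1-deleted arrays, against 7.52 and 7.43 in wild-type arrays, a difference of 0.76 ± 0.13 (adjusted p 0.00264). At 0 h its difference was -0.02, and the response difference of 0.77 was not called (adjusted p 0.273). Ccl3 and Ccl4, chemokines induced early after receptor ligation, had differences of 0.07 and 0.36 and were not called, though Ccl4 was higher with the block (adjusted p 0.0346).

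Cytokine receptors were lower in 6 of 28 tested members and higher in 1, with 14 lower under the block. Of the 6 lower calls only that of Il18r1 held, and the higher call did not. Il2ra, the IL-2 receptor alpha chain, was at 9.17 and 8.82 in TAK1-deleted arrays, against 10.74 and 10.06 in wild-type arrays (difference -1.41 ± 0.25). Il2rb, Il7r, Il18r1 and Il18rap, which T and NK cells carry, had differences of -1.43, -1.38, -1.31 and -0.89 at 1 h, and of -1.09, -1.12, -1.38 and -0.91 at 0 h. The values at both times were close for these genes. Il2ra had -0.36 at 0 h, but its response difference of -1.05 ± 0.35 was not called (adjusted p 0.9997). Il1rn, the IL-1 receptor antagonist, was lower by a difference of -0.68, and Il9r was higher by 0.71.

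Immediate early genes, among them those of transcription factors, mostly gave no call. Of 35 tested, 4 were lower and 0 higher, where 2.21% of all genes tested were lower. A difference below 0 was found in 28 of the 35, against 43.1% of all genes. The median was -0.14 at 1 h and -0.25 at 0 h. With the block 10 were lower, and at an unadjusted p below 0.05 there were 9. Egr1 was at 12.48 and 12.55 in TAK1-deleted arrays, against 12.58 and 12.57 in wild-type arrays, and it had risen by 2.67 in TAK1-deleted and by 2.70 in wild-type cells. The difference of -0.07 ± 0.19 was smaller than its standard error, which does not show that the genotypes were alike. Fos, Jun, Nr4a1 and Myc had differences of -0.32, -0.06, -0.07 and -0.14 with adjusted p from 0.461 to 0.976. The called members were Maff, a small MAF protein, at 10.20 and 10.05 in TAK1-deleted arrays, against 11.13 and 11.02 in wild-type arrays (difference -0.95 ± 0.17), Klf10, a TGF-β-induced repressor (-0.93), Fosl1, a FOS family member (-0.83), and Ier2 (-0.66). Maff and Klf10 held. Irf4, the factor that grades B cell activation, had a difference of -0.16 and was not called.

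Among 23 tested MAP kinase genes 0 were called in limma, with 1 lower and 1 higher at an unadjusted p below 0.05. The phosphatases and Sprouty-type inhibitors that MAP kinase signalling induces were lower in 3 of 14, with a median of -0.29, and in 7 with the block. Dusp14 was at 8.43 and 8.72 in TAK1-deleted arrays, against 9.76 and 9.55 in wild-type arrays (difference -1.08 ± 0.19, adjusted p 0.00241), and it held. Dusp4 and Dusp8 had differences of -0.88 and -0.73 and did not hold.

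Heat shock genes, which encode chaperones and their partners, were lower in 4 of 18 tested members. A difference below 0 was found in 17 of them (median -0.26), against 43.1% of all genes tested. The list median at 0 h was -0.11. With the block 8 were lower, while of the 4 calls only that of Bag3 held, and Hsph1 (-0.49) and Hspa4l (-0.81) had adjusted p up to 0.223 and 0.23 with an array left out. Hspb1, a small heat shock protein, was at 11.68 and 10.76 in TAK1-deleted arrays, against 13.42 and 12.96 in wild-type arrays. Its difference was -1.97 ± 0.35, but the TAK1-deleted replicates lay nearly 1 log2 unit apart and the call did not hold (adjusted p up to 0.0562). Bag3, the co-chaperone of Hsp70, was at 9.81 and 9.53 in TAK1-deleted arrays, against 11.44 and 11.36 in wild-type arrays, a difference of -1.73 ± 0.15 (adjusted p 4.27e-06). Bag3 rose with anti-IgM in both genotypes, by 1.77 in TAK1-deleted and by 3.38 in wild-type cells (response adjusted p 0.0048).

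Hspa1l, a relative of Hsp70 that was not in the heat shock list, was at 8.73 and 8.20 in TAK1-deleted arrays, against 10.95 and 10.66 in wild-type arrays. The difference was -2.34 ± 0.16 (adjusted p 3.76e-07), and at 0 h it was 0.08. Its near relative Hspa1a had another course. Hspa1a was at 8.55 and 8.10 in TAK1-deleted arrays at 0 h, against 10.35 and 10.03 in wild-type arrays, and was lower there by a difference of -1.86. At 1 h it was at 13.70 and 13.40 in TAK1-deleted arrays, against 14.21 and 13.96 in wild-type arrays, and was not called (adjusted p 0.239, and 0.000836 with the block). With the block its response was higher in TAK1-deleted cells (1.32, adjusted p 4.98e-05). Hspa1a was singled out after its values were seen, and since the Hsp70 genes are close in sequence their probe sets may share targets.

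The 13 genes whose response differed were all induced less in TAK1-deleted cells or not induced there. Those outside the groups above were named after their values were seen. Lipg, an endothelial lipase, was at 7.72 and 7.19 in TAK1-deleted arrays, against 9.20 and 8.87 in wild-type arrays (response difference -1.75 ± 0.24, adjusted p 0.0048). Dnaja4, a co-chaperone of Hsp70, was at 8.86 and 8.50 in TAK1-deleted arrays, against 10.42 and 9.81 in wild-type arrays (response difference -1.72 ± 0.26). Acod1 makes the metabolite itaconate in activated macrophages. It was at 9.61 and 9.36 in TAK1-deleted arrays, against 10.82 and 10.76 in wild-type arrays (response difference -1.45 ± 0.20, adjusted p 0.00601). Acod1 had risen by 2.00 in TAK1-deleted and by 3.45 in wild-type cells. The remaining ones were Apold1, an apolipoprotein L domain protein, Gad1, which makes GABA, Bcl6b, a repressor related to Bcl6, and Slco4a1, an organic anion transporter, with response differences of -1.59, -1.20, -1.03 and -1.004. Macrophage markers, given here because Acod1 is best known from those cells, had 0 lower and 1 higher member of 17 at 1 h (4 higher with the block) and a median difference of 0.30, and their part in the Acod1 value was not tested.

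**Figure D3:**
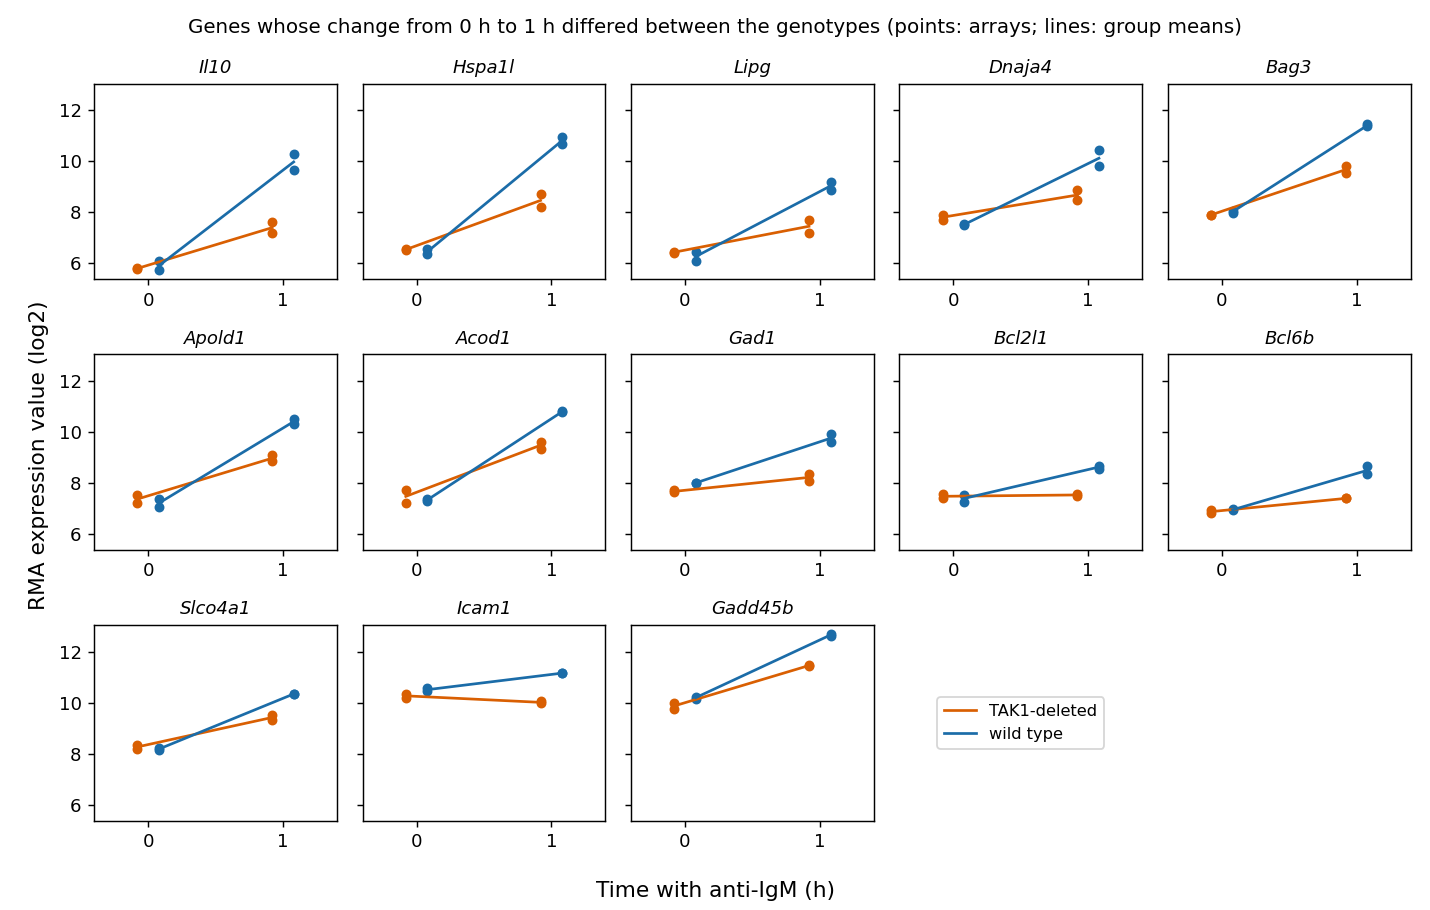
Log2 expression values (vertical axis) at 0 and 1 h of anti-IgM (horizontal axis, h) of the 13 genes whose change differed between the genotypes, with a point for each array and lines between group means. The genotypes lie close together at 0 h and apart at 1 h, where every TAK1-deleted point is below every wild-type point.

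Cell cycle genes had differences above 0 throughout, and part of them were called higher. Of 31 tested genes of G1/S and DNA replication 11 were higher and 0 lower (median 0.53), and of 25 genes of G2/M and mitosis 10 were higher and 0 lower (median 0.58). All 31 and all 25 had a difference above 0, where 43.1% of all genes tested had one below 0. The block gave 21 and 20, but only 3 calls of each list held. Rrm2, the small subunit of ribonucleotide reductase, was at 10.75 and 10.27 in TAK1-deleted arrays, against 9.30 and 9.08 in wild-type arrays (difference 1.32 ± 0.20). Ccna2, the S and G2 phase cyclin, was at 11.04 and 10.60 in TAK1-deleted arrays, against 9.79 and 9.44 in wild-type arrays (difference 1.21 ± 0.20). Mki67, a marker of cycling cells, had a difference of 0.74, and all 3 of these calls held. Ccne1, the G1/S cyclin, was at 10.32 and 9.91 in TAK1-deleted arrays, against 8.67 and 8.67 in wild-type arrays (difference 1.44 ± 0.15, adjusted p 1.94e-05). Differences were there at 0 h, with medians of 0.42 and 0.58 for the lists, 1.04 for Rrm2 and 1.28 for Ccna2. No gene of these lists was called in the response. Ccne1, which is in another list, had a smaller difference at 0 h, 0.86. With anti-IgM it changed by -0.02 in TAK1-deleted cells (not called) and by -0.60 in wild-type cells (called). The response difference of Ccne1, 0.58, was not called.

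Erythroid genes were higher almost throughout. Of 12 tested erythroid markers 11 were called at 1 h, all 11 held, and the median difference was 1.61 at 1 h and 1.53 at 0 h. Their mean level was 10.07 and 9.68 in TAK1-deleted arrays, against 8.12 and 8.16 in wild-type arrays. Rhag, a subunit of the red cell Rh complex, was at 10.30 and 9.40 in TAK1-deleted arrays, against 6.76 and 6.35 in wild-type arrays (difference 3.29 ± 0.32). Rhd was at 9.69 and 9.20 in TAK1-deleted arrays, against 6.80 and 6.96 in wild-type arrays. The globin genes Hba-a1 and Hbb-b1 were not among the genes tested. The transcription factors Gata1 and Klf1 were higher by 1.75 and 1.46. Of the 15 genes with the largest rise all 15 were called at 0 h, and they included further red cell genes, Aqp1 (water channel, 2.60), Kel (Kell antigen, 2.37), Slc4a1 (band 3, 2.51) and Pklr (pyruvate kinase of liver and red cells, 2.35). Erythroid precursors divide, and the part of such cells in the cell cycle values was not tested. In bulk samples fewer or more cells of a type and less or more RNA per cell cannot be told apart.

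The largest rise among the genes tested belonged to BC018473, a gene with no role given here. It was at 11.33 and 11.14 in TAK1-deleted arrays, against 6.73 and 6.33 in wild-type arrays (difference 4.70 ± 0.17, adjusted p 5.32e-11), and its difference at 0 h was 4.83. Ctse, the aspartic protease cathepsin E, was at 12.97 and 12.80 in TAK1-deleted arrays, against 10.40 and 10.04 in wild-type arrays. Asns, the asparagine synthetase, was at 10.60 and 9.77 in TAK1-deleted arrays, against 8.36 and 8.22 in wild-type arrays, and was the only one of 25 unfolded protein response genes to be called. The difference of Asns was 1.896 at 1 h and 1.935 at 0 h, where it was also called. Of 14 tested neutrophil genes 3 were higher (Mpo, Elane and Ltf) and 3 were lower (Cxcr2, Retnlg and Csf3r). The granule genes Mpo and Elane were higher by 1.53 and 1.19. Of the calls in this list only those of Mpo and Retnlg held.

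Most T and NK cell genes were lower, as counted above. Of 13 T cell markers the median difference was -1.02 at 1 h and -0.90 at 0 h, and of 9 NK cell markers it was -1.21 and -1.13. Cd3g, a chain of the T cell receptor complex, was at 9.58 and 9.46 in TAK1-deleted arrays, against 10.85 and 10.81 in wild-type arrays (difference -1.31 ± 0.15). Klrb1c, the NK1.1 antigen, was at 6.50 and 6.26 in TAK1-deleted arrays, against 7.88 and 7.29 in wild-type arrays. No marker of either list was called in the response. Jchain, the joining chain of secreted antibody, had the largest fall among the genes tested. It was at 6.79 and 6.80 in TAK1-deleted arrays, against 11.88 and 11.63 in wild-type arrays, a difference of -4.96 ± 0.14 that was -5.31 at 0 h. The other called plasma cell gene was Derl3 (-1.15), of 8 tested, and this call did not hold. B-1 cell markers had a median of -0.52 at 1 h and -0.505 at 0 h, with Ctla4 called at 1 h (-1.21). With the block 5 genes of each of these lists were lower.

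**Figure D4:**
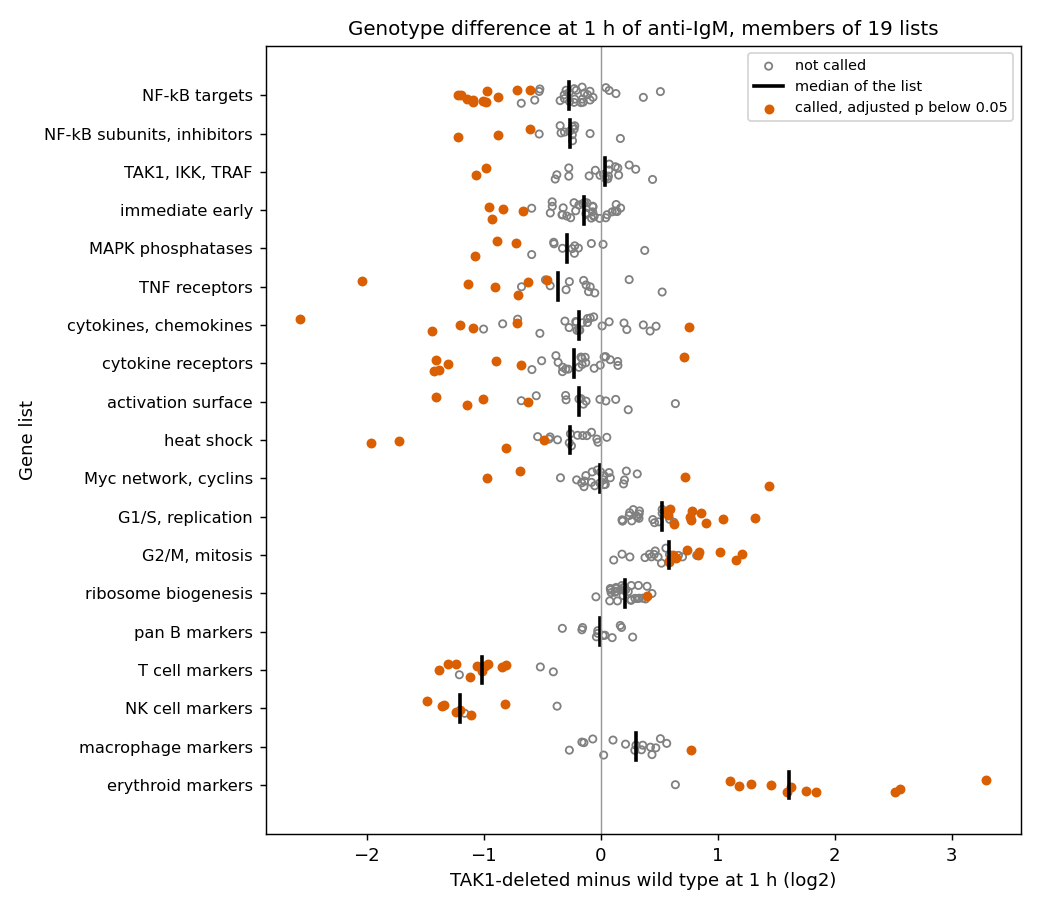
Genotype difference at 1 h (horizontal axis, log2, TAK1-deleted minus wild type) of each tested member of 19 gene lists (vertical axis), with called genes filled and a bar at each list's median. NF-κB and heat shock lists have called genes on the left, and cytokine and cytokine receptor lists on the left with 1 each on the right. Cell cycle and erythroid lists have them on the right, and T and NK cell lists lie on the left as a whole.

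Other B cell groups gave few calls. Of 30 tested B cell receptor pathway genes 1 was lower, Ighm, with 10.95 and 10.90 in TAK1-deleted arrays, against 11.77 and 11.42 in wild-type arrays (adjusted p 0.0476), a call that did not hold. Cd79a, the gene once called mb-1, had a difference of -0.33 and was not called. Of 22 transcription factors of the lineage 2 were lower, Batf (-0.93) and Id3 (-0.78). The block gave 3 lower and 1 higher in the first of these lists and 4 lower and 1 higher in the second. Id3, an inhibitor of E proteins, fell by 1.17 with anti-IgM in TAK1-deleted cells and had a change of -0.26 in wild-type cells. Its response difference of -0.905 was not called (adjusted p 0.207). Of 9 class II genes 0 were called in limma and 0 had an unadjusted p below 0.05, with differences between -0.07 and 0.20. Of 29 ribosome biogenesis genes 28 had a difference above 0, where 43.1% of all genes tested had one below 0. In this list 1 was called, Pes1 (0.40), which did not hold, with 6 under the block. Of 15 glycolysis genes 0 were called, with 2 lower and 1 higher at an unadjusted p below 0.05.

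Of 98 microRNA genes tested 2 were lower (2.04%, near the 2.21% over all genes), and neither call held. They are named after their values were seen, and the share is no result about microRNA genes. Their mature products are shown because both are known products of NF-κB activity in lymphocytes and act through the seed, bases 2 to 8, in capitals. The sequences are from RefSeq on GRCm38.p6. That of miR-155-5p lies at chr16:84714143-84714165 on the plus strand and that of miR-146a-5p at chr11:43374435-43374456 on the minus strand.
mmu-miR-155-5p: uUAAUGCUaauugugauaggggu
mmu-miR-146a-5p: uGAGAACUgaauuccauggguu

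The probe set of Mir155 was at 8.97 and 9.54 in TAK1-deleted arrays, against 10.59 and 10.28 in wild-type arrays. The difference was -1.18 ± 0.28 (adjusted p 0.0223), after 0.06 at 0 h. The probe set of Mir146 was at 5.82 and 5.41 in TAK1-deleted arrays, against 7.81 and 6.42 in wild-type arrays (difference -1.50 ± 0.34, adjusted p 0.016). With an array left out the adjusted p reached 0.283 for Mir155 and 0.2 for Mir146, and Mir146 is dim. The seeds of the 2 microRNAs differ, and the array reads the gene's transcript, not the mature microRNA.

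The genotype differences at later times come from other arrays than those at 1 h. At 3 h 204 genes were lower (1.7% of the genes tested) and 120 higher (1%), at 6 h 192 were lower (1.6%) and 111 higher (0.927%), and at 24 h 620 were lower (5.18%) and 842 higher (7.04%). Of the 264 genes lower at 1 h, 109 were lower at 3 h (41.3% of the 1 h genes and 53.4% of the 3 h genes), 69 at 6 h (26.1% and 35.9%) and 36 at 24 h (13.6% and 5.81%), when 49 were higher instead. Of the 248 genes higher at 1 h, 61 were higher at 3 h (24.6% of the 1 h genes and 50.8% of the 3 h genes), 41 at 6 h (16.5% and 36.9%) and 48 at 24 h (19.4% and 5.7%), when 56 were lower instead. Il10 kept a difference of -2.14 at 3 h and -2.34 at 6 h, and had -0.12 at 24 h. Bcl2l1 was lower at 3, 6 and 24 h, with differences of -1.63, -1.06 and -0.74. Ccnd2 had its largest difference at 3 h, with -1.87.

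Heat shock genes differed among themselves in their later course. Bag3 had a difference of -0.30 at 3 h, Hspa1l of -0.08 and Hspa4l of -0.04, none of them called. Hspb1 had -1.89 at 3 h, -2.05 at 6 h and -0.09 at 24 h. Hsph1 was lower at 3 and 24 h, with -0.55 and -0.655, and was not called at 6 h. Icam1 had -1.20 at 3 h and -0.41 at 6 h, where it was no longer called. Gadd45b was lower at 3 and 6 h and higher at 24 h, with 0.45. Il12b was not called at 3 or 6 h and was higher at 24 h, with 1.18. Rhd, an erythroid gene, had 1.25 at 3 h, 1.01 at 6 h and 0.16 at 24 h.

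**Figure D5:**
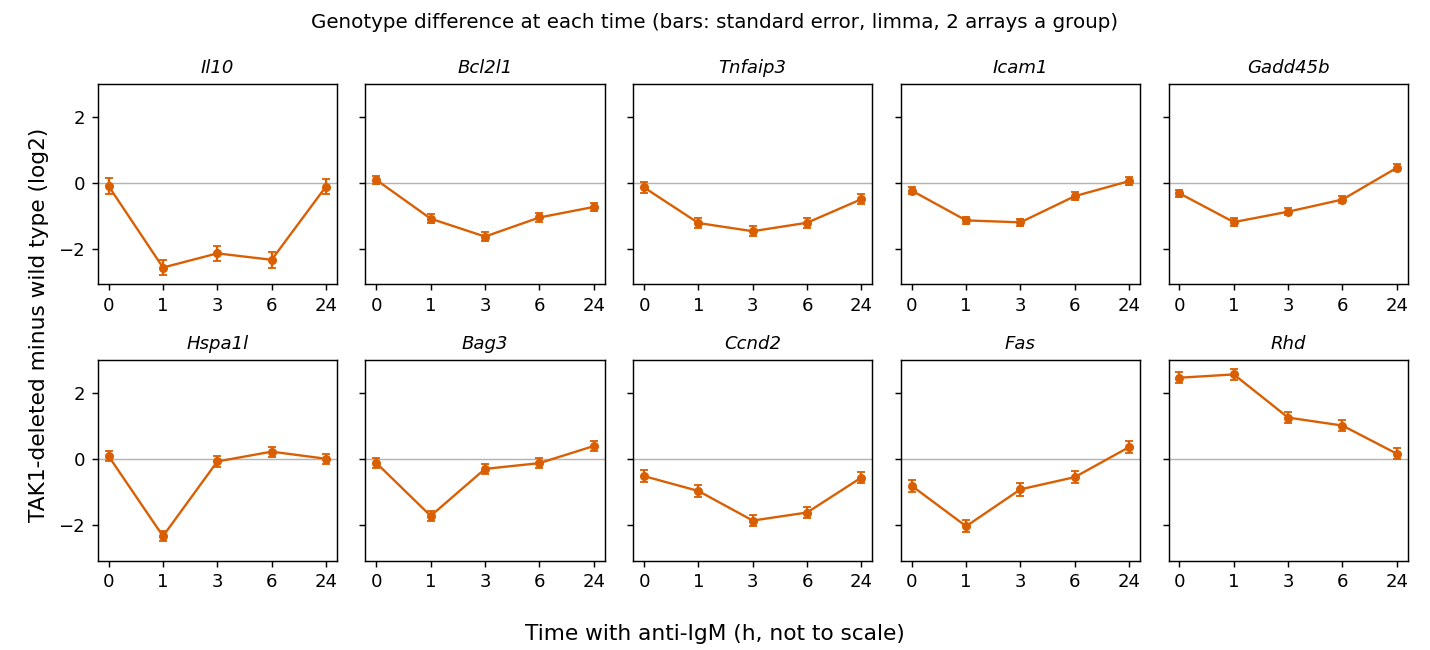
Genotype difference (vertical axis, log2, TAK1-deleted minus wild type, bars standard error from limma, 2 arrays a group) at 0, 1, 3, 6 and 24 h of anti-IgM (horizontal axis, times evenly spaced) for 10 genes. Hspa1l and Bag3 are apart at 1 h alone, Bcl2l1, Tnfaip3 and Ccnd2 stay below 0 through 24 h, and Rhd starts high at 0 h.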

How the data were processed

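Total RNA was hybridised to Affymetrix Mouse Gene 1.0 ST arrays, in 10 groups of 2. Per the submitters' processing notes, the deposited log2 values were made by the authors by RMA in Affymetrix Expression Console 1.0, and the build behind the probe sets is not given in the sources used here. The table (35556 probe sets, 3.64 to 14.68) was used as deposited, and RMA leaves a background, so folds of dim genes can be understated. Probe sets reaching the overall median (7.45) in at least 2 arrays were kept (20326), 7191 with several symbols or none were left out, and the brightest probe set stood for a gene (678 genes had several), leaving 11968.

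A model of group means was fitted to all 20 arrays by limma 3.58.1 (R 4.3.3, with a trend), with 10 residual degrees of freedom, tested on simulated data. The number of arrays limits the precision. Deviations of same-numbered arrays correlated at 0.191 to 0.769 over 45 pairs of groups (0.752 at 1 h), and the labels do not say what the number marks. From the data it was taken to pair arrays in the replicate block alone. The main fit has no block and leaves this pairing out. Named genes were the 15 largest falls and rises, up to 5 called members of each of 40 lists (629 of 701 symbols tested) and 22 preset genes. Members and lists were chosen with earlier results of these data known. Alternatives were the block, filters, probe set summary, scaling, variance settings, array weights and left-out arrays.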

Additional observations from a re-analysis of the deposited data

Results flagged for a closer look

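The change from 0 h to 1 h differed between the genotypes by the fitted response term in 13 genes, all with a smaller change in TAK1-deleted cells. The response difference was -2.47 in Il10, -2.42 in Hspa1l, -1.75 in Lipg, -1.72 in Dnaja4 and -1.61 in Bag3. It was -1.59 in Apold1, -1.45 in Acod1, -1.20 in Gad1, -1.17 in Bcl2l1 and -1.03 in Bcl6b. It was -1.004 in Slco4a1, -0.90 in Icam1 and -0.87 in Gadd45b. Groups of 2 arrays are too small for a test of a single array that stands apart.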

How the results depend on the processing

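The counts given in the report were 264 genes lower at 1 h, 248 higher at 1 h, 278 called at 0 h and 13 in the response. With the replicate block for the pairing of arrays they were 684, 860, 837 and 90, and it ended no call at 1 h. A stricter filter gave 161 lower, 135 higher and 135 at 0 h. Quantile normalization again gave 527, 440, 559 and 34, and centring on array medians gave 551 lower, 451 at 0 h and 32 in the response. These scalings moved the median of all genes to 0.01 and -0.03, against 0.03 as deposited. Array weights gave 175, 161 and, in the response, 7. The compared arrays alone gave 118, 88, 150 and 0. Leaving out 1 array gave 107 to 237 lower, 100 to 216 higher, 119 to 200 at 0 h and 5 to 17 in the response. The cause of these shifts was not tested. Of 115 called genes followed, 85 were called under every alternative other than leaving out 1 array and 65 under all, and none of the 115 changed sign. Of 13 uncalled genes followed, 3 changed sign: Cd86 with centring (-0.02) and without TAK1-deleted replicate 1 (-0.05) or wild-type replicate 2 (-0.18), and Jun (0.03) and Rel (0.01) without wild-type replicate 1. Relb was called under quantile normalization (adjusted p 0.0407) and centring (0.0221), Map3k7 under the block (0.0209), quantile normalization (0.0211) and centring (0.048), and Cd69 under the block (0.0132) and centring (0.0202).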

Other observations

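Other gene lists used for this comparison gave few calls at 1 h. Of 25 tested trafficking and quiescence genes 3 were lower, the chemokine receptors Cxcr3 (-0.80) and Cxcr5 (-0.58) and the G protein regulator Rgs16 (-0.73), and 0 were higher. The call of Cxcr3 alone held, and Cxcr3 was also called lower at 0 h (-0.59). With the block 6 were lower and 2 higher. Of 24 interferon response genes 0 were lower and 1 was higher, Xaf1, with 9.24 and 8.83 in TAK1-deleted arrays, against 8.23 and 7.94 in wild-type arrays, a call that did not hold. With the block 4 were lower and 3 higher. Of 18 p53 target genes 2 were lower, Fas and Bbc3.

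Among markers of B cell subsets, 1 of 9 marginal zone genes was lower, Cd9 (-0.78), 1 of 4 follicular genes was lower, Cxcr5, and 0 of 4 transitional genes were called in limma or had an unadjusted p below 0.05. Of 10 dendritic cell markers 1 was higher, Siglech (0.86), which also had a difference of 0.94 at 0 h. Of 6 platelet markers 0 were called, with 2 higher at an unadjusted p below 0.05. Of 11 genes of the Pim and Socs families 1 was lower, Pim1. The calls of Cd9, Cxcr5, Siglech and Pim1 did not hold.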
